A study of Rattus norvegicus with 6 samples.

Results

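The protein-coding Hox genes were examined in RNA-seq of dorsal root ganglion (DRG) neurons from spinal levels L1-L2 of spontaneously hypertensive rats (SHRs). Members were the rows of the count table with the biotype protein_coding and a gene name made of Hox, a cluster letter (a to d) and a number, and 32 of 25689 rows met this rule. They carried 31 names, since 2 rows (ENSRNOG00000053884 and ENSRNOG00000059870) were both named Hoxa11. The groups were 3 samples taken 4 weeks after perirenal adipose tissue ablation (PRATA), in which the fat around both kidneys was removed, and 3 samples taken after a sham operation. All 6 came from SHRs, a strain with inherited high blood pressure, labelled wild type in genotype. The labels give an age of 6 to 8 weeks, while the study's methods give 12 weeks at purchase. The ganglia were dissociated and neurons were separated from glia by their slower attachment to culture dishes, so that the RNA was not from a purified single cell type, and in bulk RNA fewer cells of a type cannot be told apart from less RNA per cell. The series description counts 3 rats in each group.

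Hox genes encode homeodomain transcription factors that lie in 4 clusters, Hoxa to Hoxd. Members at the same place in different clusters form a paralog group, numbered from 1 at the anterior end to 13 at the posterior end. In the embryo, the genes are switched on in the order in which they lie in a cluster, so that low-numbered paralogs begin at the hindbrain and high-numbered ones in the lumbar, sacral and tail regions. Part of this code persists in adult neurons and is used as a molecular record of spinal level. Hox proteins bind DNA together with TALE-class cofactors of the Pbx, Meis and Pknox families. Polycomb proteins keep silent Hox genes off, Trithorax proteins keep active ones on, and retinoic acid and caudal (Cdx) factors set the code up.

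Total counts per sample lay between 5892967 (sham 2) and 15226952 (sham 1), and Hox rows together took between 579 reads (PRATA 1) and 1112 reads (PRATA 2). The level of each gene is given as CPM, the read count scaled to a common library size with TMM factors, which is not divided by gene length, so that levels were compared between samples and not between genes. Sham 2 stood apart. It had reads on 90.2% of all genes against 73.8% to 80.5% in the other samples, and on all 32 Hox rows against 23 to 27. It alone had reads on 1616 genes, against 135 to 319 in the others. PRATA 3 and sham 1 differed from the other 4 samples in the copy of the 7SL RNA that took reads, with Rn7sl1 at 5.40% and 5.63% of counts against 1.25% to 1.52%. The summed CPM of 18 sensory neuron markers, all detected, was 14363 to 22054 after PRATA, against 10032 to 15317 after sham. All 18 had a log2 fold change above 0 (median 0.51, beside 0.02 over all genes tested). Of these, 5 had an unadjusted p under 0.05 by edgeR, while 8.19% of all genes tested were higher at this threshold. Summed fibroblast markers (9 genes, 8 with a log2 fold change below 0) were 525 to 2607 CPM against 1511 to 2665 CPM. Satellite glia and Schwann cell markers (14 genes, 7 above 0 and 7 below) summed to 1509 to 2856 CPM against 1632 to 2437 CPM. Summed spinal cord markers (9 genes, with the motor neuron gene Mnx1 at 3 or fewer reads in every sample) were 25.8 to 36.7 CPM against 38.2 to 52.9 CPM, with 2 of the 4 tested above 0 and 2 below. Without Aqp4, which glia also express and which was left out after the values were seen, the other 8 summed to 22.1, 17.0 and 18.2 CPM against 13.1, 30.1 and 11.7 CPM, with overlap. Slc5a7, the largest of the 8 in every sample, gave 18.5, 13.5 and 14.9 CPM against 9.47, 16.7 and 4.53 CPM of these sums. The overlap thus depended largely on this gene. The part of these differences in the Hox values was not tested.

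The first question was which paralog groups were expressed at this spinal level. A gene was called expressed when it had 10 or more reads in each of the 6 samples, and at the floor when it had 3 or fewer in each. By this rule 17 of the 32 rows were expressed, 10 were low and 5 were at the floor. Paralog groups 1 to 10 each had at least 1 expressed member, and groups 11 to 13 had none. The expressed genes were Hoxa2 and Hoxa7, the 7 genes from Hoxb2 to Hoxb8, Hoxc4, Hoxc6, Hoxc8, Hoxc9 and Hoxc10, and Hoxd1, Hoxd4 and Hoxd8. The low rows included Hoxa4, both Hoxa11 rows, Hoxb1, Hoxb9, Hoxc5, Hoxd3, Hoxd9 and Hoxd10. Hoxc5 missed the rule through a single sample, PRATA 1, with 8 reads. Hoxb13, Hoxc13, Hoxd11, Hoxd12 and Hoxd13 were at the floor.

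**Figure D1:**
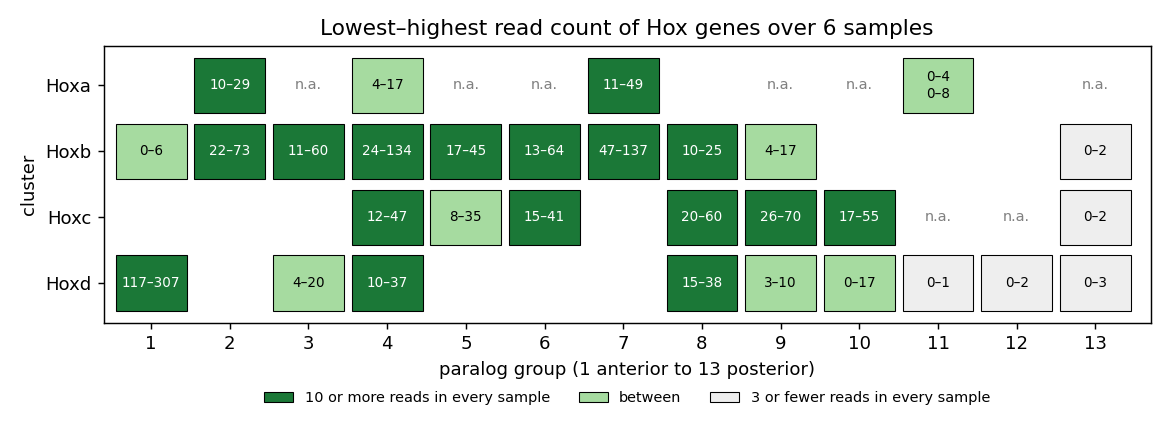
Lowest and highest read count over the 6 samples for the protein-coding Hox rows reported, by cluster (vertical) and paralog group (horizontal), with colour giving the class. The 17 dark genes lie in groups 1 to 10, and no row of groups 11 to 13 is dark. Each coloured cell is a gene described in the text, cells marked n.a. are rat Hox genes that were not analysed here, and Hoxa11 has 2 rows.

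Among the member rows, the most posterior expressed genes of the clusters were Hoxa7, Hoxb8, Hoxc10 and Hoxd8. For Hoxa this is not a limit of expression, since Hoxa9 and Hoxa10 had no row under these names. A row outside the rule that RefSeq pairs with Hoxa10 (LOC100911668, below) met the count rule for expressed genes. In the Hoxb cluster, Hoxb8, a regulator of sensory neuron patterning, ended the expressed stretch, with 14, 24 and 25 reads in PRATA 1 to 3 and 10, 11 and 20 in sham 1 to 3. Its neighbour Hoxb9 had 8, 17 and 8 reads against 14, 13 and 4. Hoxb13, the terminal gene of the cluster, had no read in 5 samples and 2 in sham 2. The Hoxb cluster thus had reads through group 9, with Hoxb9 under 10 reads in PRATA 1, PRATA 3 and sham 3.

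Of the member rows, those of the Hoxc cluster held the most posterior expressed gene. Hoxc10, a gene of lumbar identity in the spinal cord, had 17, 47 and 41 reads in the PRATA samples and 49, 24 and 55 in the sham samples. Hoxc9, a gene of thoracic identity, had 26, 70 and 45 reads against 54, 36 and 48. Hoxc13 had 0, 2 and 0 reads against 0, 1 and 0. Thoracic and lumbar paralogs of this cluster were thus both present in every sample, and the terminal one was at the floor, while Hoxc11 and Hoxc12, which lie between them, were not analysed here.

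In the Hoxd cluster, reads ran out toward the posterior end. Hoxd8 was expressed, with 33, 24 and 22 reads in the PRATA samples and 38, 16 and 15 in the sham samples. Hoxd9 had 9, 8 and 8 reads against 8, 10 and 3, and Hoxd10, the cluster's lumbar paralog, had 0, 1 and 1 reads against 8, 17 and 3. Hoxd11 had 1 read in all, Hoxd12 had 2 and Hoxd13 had 7. Hoxd1, at the anterior end and known in mammals for its role in pain-sensing neurons, had 176, 153 and 307 reads against 204, 117 and 123. It was the gene with the most reads of the 32 in every sample and took 13.8% to 32.5% of a sample's Hox reads, a share of reads that also depends on gene length. Its paralog Hoxb1 had 0 to 6 reads.

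In the Hoxa cluster, Hoxa2 had 10, 29 and 16 reads against 10, 17 and 19, and Hoxa7 had 26, 49 and 40 against 27, 42 and 11. Hoxa4 ranged from 4 to 17 reads. The 2 rows named Hoxa11 had 5 and 9 reads in all, of which 4 and 8 came from sham 2. Hoxa3, Hoxa5, Hoxa6, Hoxa9, Hoxa10, Hoxa13, Hoxc11 and Hoxc12 had no row under these names and were not analysed here. A protein-coding row named LOC100911668, which RefSeq pairs with Hoxa10 by its gene number, lay outside the rule. It had 48, 70 and 109 reads in the PRATA samples and 74, 83 and 71 in the sham samples, and so met the count rule for an expressed gene. The log2 fold change of this row (PRATA over sham) was -0.26 (SE 0.38, adjusted p = 0.752 by edgeR), and 0.21 without sham 2.

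The reads on groups 11 to 13 were few and lay mostly in sham 2. Their 7 rows had 0, 2 and 3 reads in the PRATA samples and 2, 21 and 1 in the sham samples. Sham 2 held 21 of the 29 reads, or 72.4% (95% exact binomial interval 52.8% to 87.3%), while it held 9.06% of all counts. It was the only sample with a read on each of the 7 rows. For PRATA 1, with no read, a count of 0 allows up to 0.369 CPM, unscaled, over the 7 rows. The share of counts on pseudogenes was also highest in sham 2, at 0.751% against 0.389% to 0.483%, and its part in these reads was not tested. Intervals and limits of this kind cover counting error only.

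**Figure D2:**
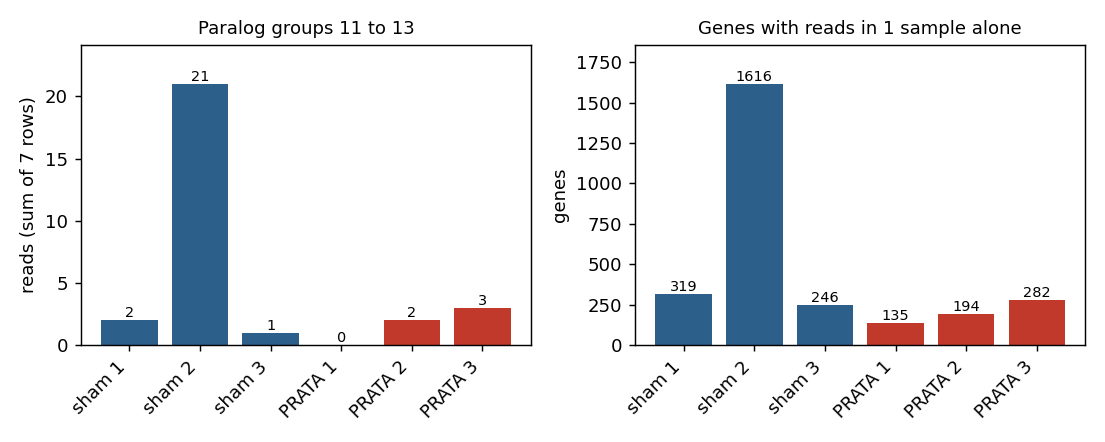
Left, reads summed over the 7 rows of paralog groups 11 to 13 in each sample. Right, number of genes with reads in that sample and in no other. Blue bars are sham and red bars PRATA, and sham 2 stands above the other 5 samples in both panels, with 21 reads and 1616 genes.

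The upstream sequences of the Hoxd genes are shown because this cluster held the gene with the most reads, Hoxd1, beside genes near or at the floor. RefSeq promoters (build GRCr8) were matched for 15 of the 31 names. Each sequence is the 250 bases before the gene's start, 5′ to 3′, with CG dinucleotides in capitals. CG-rich promoters are a common feature of genes under Polycomb control. The windows are Hoxd1 at chr3:80072791-80073040, Hoxd4 at chr3:80021636-80021885, Hoxd10 at chr3:80001697-80001946 and Hoxd11 at chr3:79992144-79992393, all on the plus strand.
Hoxd1: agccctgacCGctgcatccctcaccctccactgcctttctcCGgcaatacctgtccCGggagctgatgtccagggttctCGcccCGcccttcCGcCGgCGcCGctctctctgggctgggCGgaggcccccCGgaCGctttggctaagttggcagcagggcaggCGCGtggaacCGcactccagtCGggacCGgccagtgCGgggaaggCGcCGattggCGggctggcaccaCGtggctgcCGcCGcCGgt
Hoxd4: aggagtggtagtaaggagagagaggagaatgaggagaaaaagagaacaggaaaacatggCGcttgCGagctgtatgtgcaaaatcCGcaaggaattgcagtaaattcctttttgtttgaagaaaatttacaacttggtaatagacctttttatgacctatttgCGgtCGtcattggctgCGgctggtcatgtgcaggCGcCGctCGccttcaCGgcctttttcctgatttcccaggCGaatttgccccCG
Hoxd10: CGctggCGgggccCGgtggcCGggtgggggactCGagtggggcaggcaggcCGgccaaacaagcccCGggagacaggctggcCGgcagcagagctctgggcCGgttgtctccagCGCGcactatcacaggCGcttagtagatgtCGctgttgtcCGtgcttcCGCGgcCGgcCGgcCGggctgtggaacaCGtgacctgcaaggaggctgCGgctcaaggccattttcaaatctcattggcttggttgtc
Hoxd11: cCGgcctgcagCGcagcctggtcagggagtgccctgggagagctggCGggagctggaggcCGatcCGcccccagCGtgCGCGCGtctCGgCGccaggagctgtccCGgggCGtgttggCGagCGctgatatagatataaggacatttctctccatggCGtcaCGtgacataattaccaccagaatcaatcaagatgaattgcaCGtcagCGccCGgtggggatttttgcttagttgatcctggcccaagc

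The number of CG dinucleotides overlapped between genes with many reads and genes at the floor. Hoxd1 had 25 in its window, Hoxd4 had 12, Hoxd10 had 21 and Hoxd11, at the floor, had 20. At least as many were found in 9.74%, 31.5%, 15.1% and 16.7% of all 33469 promoters of that length. The 15 matched Hox promoters had a median of 20 (range 3 to 38), against a median of 5 over all promoters. The range was 3 to 38 in the 6 expressed genes, 6 to 32 in the 6 low ones and 14 to 30 in the 3 at the floor. The motif TGATNNAT, a form of the joint Hox and Pbx binding sequence searched on both strands, was present in 3 of the 15 (Hoxa2, Hoxb1 and Hoxd11) and in 7.96% of all promoters. These matches describe letters in a window and not binding.

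The second question was whether PRATA changed the Hox genes. Of the 32 rows, 20 had enough reads to enter the edgeR fit, namely the 17 expressed genes with Hoxb9, Hoxc5 and Hoxd3. In the quasi-likelihood fit of edgeR, with p-values adjusted by Benjamini-Hochberg over 14919 genes, none had an adjusted p under 0.05, and the adjusted p lay between 0.220 and 0.991. Over all genes tested this share was also 0.0%. At an unadjusted p under 0.05, 1 of 20 (5.0%) was called, Hoxb3, against 18.3% of all genes tested. DESeq2 called the same 1 gene at the unadjusted threshold and gave Hoxb3 no adjusted p. With an absolute log2 fold change over 1 added, the count was again 1 of 20 (5.0%), against 4.4% of all genes. By direction, 1 Hox gene was lower by this rule (3.23% of all genes) and 0 were higher (1.17%). The groups did not overlap for 2 of 20, Hoxb3 and Hoxd4, against 22.8% of all genes. The Hox genes were thus called no more often than genes at large at the unadjusted threshold and in the non-overlap count.

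The sizes of the differences were mostly small next to their errors. The log2 fold change (PRATA over sham) ranged from -1.003 to 1.20 with standard errors of 0.30 to 0.68, and 14 of the 20 were within 0.5 of 0. The median was 0.17, beside 0.02 over all genes tested. The genes had 60 to 1080 reads over the 6 samples, and this depth limits which differences could be detected. The summed CPM of all Hox rows was 74.7, 88.6 and 74.7 in the PRATA samples and 64.9, 94.0 and 63.9 in the sham samples, so that the groups overlapped.

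**Figure D3:**
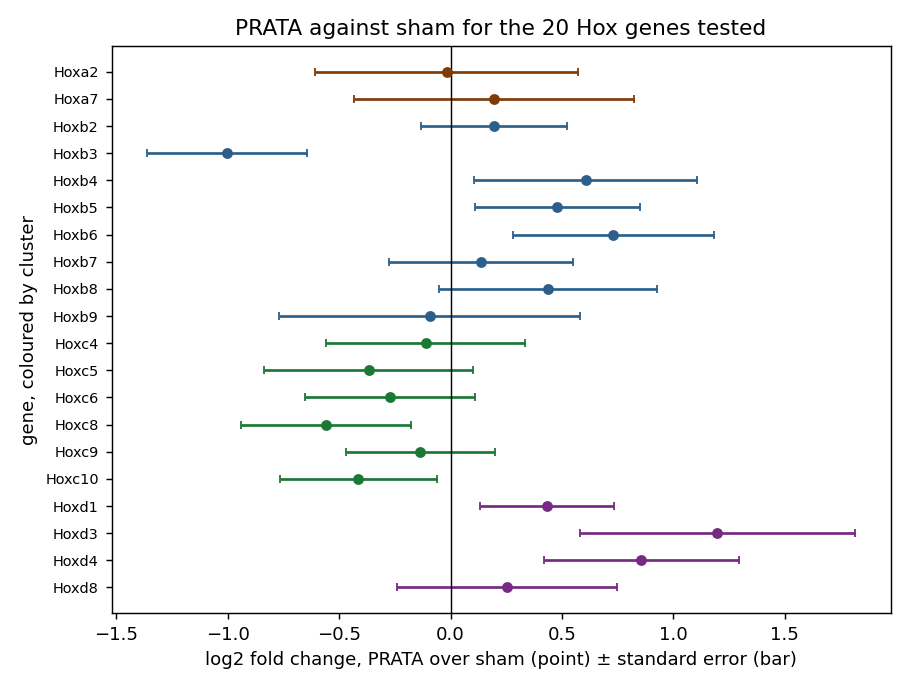
Log2 fold change of PRATA over sham (points) with standard error (bars) for the 20 Hox genes tested, in order of paralog number within each cluster and coloured by cluster. Hoxb3 at -1.003 is the lowest, Hoxd3 at 1.20 the highest, and the 6 Hoxc genes lie below 0.

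The clusters differed in the side of 0 on which their genes lay, although no gene passed the adjusted test. All 4 Hoxd genes tested were above 0, as were 6 of 8 Hoxb genes and 1 of 2 Hoxa genes, while none of 6 Hoxc genes was. These counts were the same with DESeq2's size factors and with library size alone. They hold for the genes that passed the filter: without it, 5 of 9 Hoxd rows were above 0, 6 of 10 Hoxb rows, 2 of 6 Hoxa rows and 1 of 7 Hoxc rows, and Hoxd10 was among the Hoxd rows below 0. Without sham 2, 2 of 6 Hoxc genes were above 0, without PRATA 1, 3 of 4 Hoxd genes were, and without PRATA 2, 4 of 8 Hoxb genes were. RefSeq has the Hoxc6 locus overlap those of Hoxc4 and Hoxc5, so that the counts of these 3 may share reads. By paralog number, 5 of 8 genes of groups 1 to 4 were above 0 (median 0.31), 6 of 9 of groups 5 to 8 (median 0.20) and 0 of 3 of groups 9 and 10 (median -0.14). The last 3 were Hoxb9, Hoxc9 and Hoxc10, so the split by paralog number shares genes with the split by cluster. The cluster sums overlapped between groups, with Hoxc at 12.7, 21.1 and 15.8 CPM after PRATA, against 17.7, 22.0 and 22.3 CPM after sham. Hoxd summed to 31.6, 19.4 and 29.8 CPM against 19.2, 28.6 and 15.5 CPM.

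Hoxb3 (ENSRNOG00000008313), known for its part in hindbrain and neck patterning, was the member with the smallest p. It had 11, 29 and 23 reads in the PRATA samples and 60, 21 and 40 in the sham samples. In CPM this was 1.42, 2.31 and 1.82 against 4.15, 3.28 and 3.78, and every PRATA sample was below every sham sample. The PRATA samples averaged 1.85 ± 0.45 CPM (SD, n = 3), the sham samples 3.73 ± 0.44 CPM (SD, n = 3). Its log2 fold change was -1.003 (SE 0.36, unadjusted p = 0.0232, adjusted p = 0.220 by edgeR), and the exact two-sided permutation test gave p = 0.10, the smallest that 3 samples against 3 allow. The unadjusted p was not under 0.05 without PRATA 1, PRATA 3, sham 1 or sham 3, nor among the 4 samples alike in the 7SL copy. The log2 fold change was -0.88, -0.98, -0.94, -0.99 and -0.91 in these fits, which rest on fewer samples (adjusted p = 0.562, 0.399, 0.356, 0.539 and 0.533 by edgeR). RefSeq places a non-coding RNA gene, LOC102550580, over the Hoxb3 locus, and reads of the pair could not be told apart without the strand setting of the counting.

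Hoxb4, the next gene of the cluster, did not show the same pattern. Its reads were 38, 134 and 32 in the PRATA samples and 50, 24 and 50 in the sham samples. The log2 fold change of Hoxb4 was 0.61 (SE 0.50, adjusted p = 0.543 by edgeR), and PRATA 2 was far above the other PRATA samples. The ratio of Hoxb3 to Hoxb4 reads, chosen after the values were seen and not tested, was 0.289, 0.216 and 0.719 in the PRATA samples and 1.20, 0.875 and 0.80 in the sham samples. Hoxb6 had 29, 64 and 54 reads against 40, 26 and 13, with a log2 fold change of 0.73 (SE 0.45, adjusted p = 0.415 by edgeR). Hoxb5 (0.48), Hoxb8 (0.44), Hoxb2 (0.19), Hoxb7 (0.14) and Hoxb9 (-0.09) had smaller log2 fold changes. RefSeq has the non-coding RNA gene Hoxb5os overlap the loci of Hoxb5 and Hoxb6, so that their counts may include its reads.

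**Figure D4:**
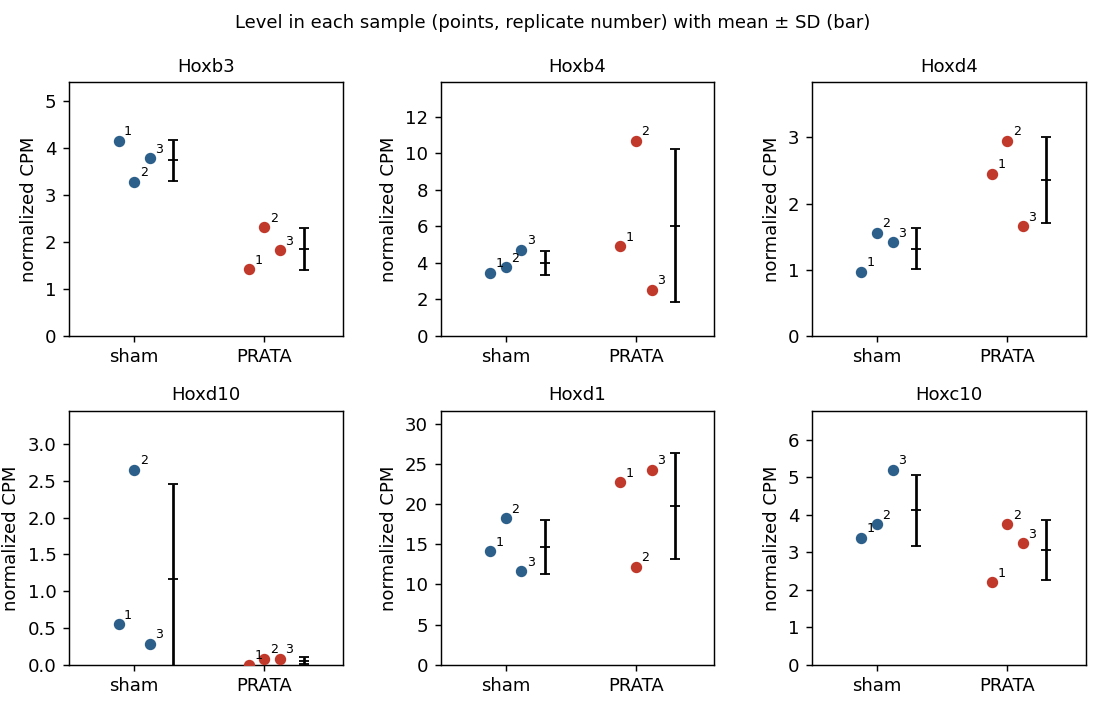
Normalized CPM of 6 Hox genes in each sample (points, with the replicate number), with the mean and SD of each group (bars, n = 3, vertical axes start at 0). Every PRATA point lies below every sham point for Hoxb3 and Hoxd10 and above every sham point for Hoxd4, while the groups overlap for Hoxb4, Hoxd1 and Hoxc10.

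Among the Hoxd genes, Hoxd4 (ENSRNOG00000001578) had 2.45, 2.95 and 1.66 CPM after PRATA, against 0.967, 1.56 and 1.42 CPM after sham. Every PRATA sample was above every sham sample, although PRATA 3 and sham 2 lay close together. RefSeq places a non-coding RNA gene, LOC120101573, and the microRNA gene Mir10b over the Hoxd4 locus, so that its count may include their reads. For Hoxd4 the log2 fold change was 0.86 (SE 0.44, unadjusted p = 0.086, adjusted p = 0.331 by edgeR). Its neighbour Hoxd3 had 8, 20 and 16 reads against 4, 7 and 5. Its log2 fold change was 1.20 (SE 0.62, adjusted p = 0.334 by edgeR), and the groups overlapped in CPM. Hoxd3 passed the read filter mainly through the PRATA samples. Hoxd1 had 22.7, 12.2 and 24.3 CPM against 14.1, 18.3 and 11.6 CPM, with PRATA 2 among the sham values. This gave a log2 fold change of 0.43 (SE 0.30, adjusted p = 0.467 by edgeR).

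Hoxd10 (ENSRNOG00000001581) had too few reads to be tested and was chosen after its values were seen. It had 2 reads in the 3 PRATA samples together and 28 in the 3 sham samples. In CPM this was 0, 0.080 and 0.079 against 0.553, 2.65 and 0.283, so that the groups did not overlap and sham 2 was the highest. With Hoxd10 included, groups did not overlap for 3 of all 32 Hox rows, beside 22.8% of all genes tested. The pooled level of Hoxd10 was 14.7 times higher in sham (95% exact interval from counting 3.70 to 127), and 7.23 times higher without sham 2 (1.58 to 67.1, 2 reads against 11). These intervals do not hold the spread between samples. In the edgeR fit without a filter, the log2 fold change was -3.95 (unadjusted p = 0.00832, adjusted p = 0.220), a fitted value that depends on how counts near 0 are handled. Evx1, a homeobox gene beside the posterior end of the Hoxa cluster, had 1, 0 and 0 reads in the PRATA samples and 3, 7 and 3 in the sham samples.

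The Hoxc genes tested lay between -0.56 (Hoxc8) and -0.11 (Hoxc4) on the log2 scale. Hoxc10 had 2.19, 3.74 and 3.24 CPM after PRATA, against 3.39, 3.75 and 5.20 CPM after sham. Its log2 fold change was -0.41 (SE 0.35, adjusted p = 0.560 by edgeR), and PRATA 2 was level with sham 2. Hoxc9 differed less, at -0.14 (SE 0.33). In the Hoxa cluster, Hoxa2 was at -0.02 (SE 0.59) and Hoxa7 at 0.20 (SE 0.63), and sham 2 was the highest sham value of Hoxa7.

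The number of Hox genes higher after PRATA at the unadjusted threshold depended on sham 2. With all samples, 0 genes met an unadjusted p under 0.05 in this direction, against 8.19% of all genes. Without sham 2, 3 did, each with a log2 fold change over 1. Hoxd3 was at 1.80 (adjusted p = 0.119), Hoxa7 at 1.24 (adjusted p = 0.124) and Hoxb6 at 1.12 (adjusted p = 0.164), all by edgeR. Hoxd3 passed the read filter of this fit through the PRATA samples alone, so its call depended on the group in which it was high. Hoxb3 was lower in this fit too, at -1.08 (adjusted p = 0.130 by edgeR). In this fit 13.4% of all genes were higher and 14.1% lower at an unadjusted p under 0.05, and 2.34% were higher with a log2 fold change over 1.

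The cofactors of the Hox proteins were all measured. Of 9 TALE-class genes tested, 2 were higher and 1 was lower after PRATA at an unadjusted p under 0.05 (shares over all genes 8.19% and 10.1%), and none had an adjusted p under 0.05 by edgeR. The median log2 fold change was 0.36. Pbx4 had 15, 17 and 16 reads in the PRATA samples and 3, 0 and 3 in the sham samples. The pooled level was 7.64 times higher after PRATA (95% exact interval from counting 3.27 to 21.8), with an adjusted p of 0.157 by edgeR. Pbx4 passed the read filter through the PRATA samples alone, so its call as 1 of the 2 higher genes depended on the group in which it was high. Meis3 had 14.2, 17.0 and 14.5 CPM against 11.1, 9.52 and 9.82 CPM, without overlap, and its log2 fold change was 0.58 (SE 0.20, adjusted p = 0.205 by edgeR). Pknox1 had 13.3, 16.3 and 12.3 CPM against 17.8, 17.5 and 24.7 CPM, and its log2 fold change was -0.51 (SE 0.22, adjusted p = 0.267 by edgeR). Meis1 had 2.45, 2.79 and 2.29 CPM against 3.87, 9.37 and 2.64 CPM, with sham 2 far above the rest, and an adjusted p of 0.302 by edgeR.

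Of 23 Polycomb and Trithorax genes tested, 4 were higher and 2 lower at an unadjusted p under 0.05 (shares over all genes 8.19% and 10.1%), none at an adjusted p under 0.05 by edgeR, and the median log2 fold change was -0.07. The 2 lower genes were Bmi1, a subunit of Polycomb complex PRC1, and Eed, the PRC2 subunit that binds the methylated histone. Bmi1 had 12.005, 14.2 and 14.5 CPM after PRATA, against 23.9, 19.4 and 22.4 CPM after sham (log2 fold change -0.69, SE 0.19, adjusted p = 0.168 by edgeR). Eed had 18.5, 16.7 and 12.6 CPM against 22.0, 21.5 and 26.1 CPM (log2 fold change -0.55, adjusted p = 0.230 by edgeR). Both were among 6 of the 23 genes whose groups did not overlap, against 22.8% of all genes tested. The others of the 6 were higher after PRATA, with Cbx2, Cbx7 and Men1 among them. Ezh2, the PRC2 methyltransferase, had 20.4, 26.1 and 9.17 CPM against 11.1, 9.21 and 5.48 CPM, with overlap (log2 fold change 1.11, adjusted p = 0.229 by edgeR). Eed and Ezh2, subunits of the same complex, thus lay on opposite sides of 0.

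Of 20 genes for retinoic acid and caudal inputs, 14 were tested, of which 1 was lower and none higher at an unadjusted p under 0.05 (shares over all genes 10.1% and 8.19%), with a median log2 fold change of 0.04. The lower gene was Aldh1a3, a retinoic acid synthesis enzyme, at 1.68, 4.22 and 3.56 CPM after PRATA, against 7.74, 3.90 and 12.7 CPM after sham, with overlap at sham 2 (log2 fold change -1.35, SE 0.49, adjusted p = 0.221 by edgeR). Cdx1 and Cdx4 were at 3 or fewer reads in every sample. Gdf11, a signal that promotes posterior Hox genes in the embryo, had 50.3, 40.4 and 39.2 CPM against 36.1, 32.9 and 26.4 CPM, without overlap (log2 fold change 0.44, adjusted p = 0.273 by edgeR). The retinoid receptors lay on both sides of 0, with Rarg at 0.46, Rxrb at 0.36 and Rara at -0.50, all with overlapping groups. Rxra had 4.13, 8.76 and 8.07 CPM against 10.1, 8.90 and 11.1 CPM, without overlap (log2 fold change -0.51, adjusted p = 0.410 by edgeR).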

How the data were processed

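The authors isolated neurons from L1-L2 DRGs, made libraries with a stranded total RNA kit and deposited a table of raw gene counts for 3 PRATA and 3 sham samples, without normalization. The paper's text names HISAT2, StringTie and Cuffdiff, and the submitters' processing notes name STAR 2.7.3a, RSEM and DESeq2. The tool that made the counts, its strand setting, the genome build and the annotation are not given in the sources used here, so reads of overlapping and antisense genes could not be assigned with certainty (8 of the 31 Hox loci overlap another gene in RefSeq). Counts per gene are whole numbers. No sample column was left out.

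The main fit used edgeR 4.0.16 in R 4.3.3 (filterByExpr set to min.count 10 and min.total.count 15, TMM factors of 0.953 to 1.10, quasi-likelihood test, two-sided, no covariate), with limma 3.58.1 and DESeq2 1.42.0 as alternatives, and Python 3.11.15, scipy 1.17.1 and matplotlib 3.10.9. The fit covered 14919 of 25689 genes, with Benjamini-Hochberg adjustment over all of them, and was tested on simulated counts. CPM values are TMM-scaled. A floor of 3 counts was 0.207 to 0.468 CPM. An exact permutation test of 3 against 3 samples cannot give p under 0.10. The series description counts 3 rats per group but does not pair them with samples.

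Members and lists were chosen with earlier results of these data known. Values per sample are given for the expressed genes at the end of each cluster's stretch, for genes with an unadjusted p under 0.05 or groups without overlap, and for up to 4 genes with the smallest p in each list. Hoxb4, Hoxb6, Hoxb9, Hoxc9, Hoxd1, Hoxd3, Hoxd9, Hoxd10, Evx1, LOC100911668 and others below the count rule were added after their values were seen. Some of the genes that the rule picks are not reported here. Same-numbered samples did not deviate together (r = -0.39, -0.10 and -0.36 across 14919 genes, which are not independent replicates), so the replicate number was used as a block only in an alternative. RefSeq tables (GRCr8) gave gene order, overlaps and promoters.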

Additional observations from a re-analysis of the deposited data

How the results depend on the processing

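The fit was repeated under 17 alternatives. Hoxb3, Hoxd4 and Pbx4, Meis3, Pknox1, Meis1, Bmi1, Eed, Ezh2, Aldh1a3, Gdf11, Rarg and Rxrb each had a log2 fold change of the same sign in every alternative that fitted them, while the Hoxa10 row LOC100911668 went from -0.26 to 0.21 without sham 2. The adjusted p ranged from 0.0398 to 0.550 for Bmi1 and 0.0455 to 0.550 for Pbx4. Hoxb3 ranged from -1.19 to -0.74, with an unadjusted p of 0.00892 to 0.134 and under 0.05 in 11 of 17. Hoxd4 was under 0.05 in 0 of 17. DESeq2 gave an adjusted p to 4 of the 20 Hox genes and none to the other 16, Hoxb3 and Hoxd4 included, so that its 728 calls over all genes cannot be set against them. No Hox gene with an adjusted p was under 0.05 in any alternative, while over all genes voom with sample quality weights 1173, the fit without sham 2 721 and the 4 samples alike in the 7SL copy 13. Without a filter on low counts, 2 Hox genes were lower at an unadjusted p under 0.05, without or with the fold threshold (Hoxb3 and Hoxd10, 2 of 32 rows, against 8.19% and 4.51% of all genes), and the median log2 fold change over 32 rows was -0.055, beside -0.17 over all genes. On the limma-trend scale of log2(CPM + 1), 0 were lower past the fold threshold, against 1.70% of all genes. With voom's quality weights, 3 of 20 were higher (Hoxa7, Hoxb6 and Hoxd3), with and without the fold threshold, against 2.28% and 15.6% of all genes. With the replicate block, 0 were lower by either rule, against 6.08% of all genes without the fold threshold and 2.49% with it. Hoxb3 had a log2 fold change of -1.02 in that fit (unadjusted p = 0.0603, adjusted p = 0.490 by edgeR). Among the 4 samples other than PRATA 3 and sham 1, 0 were lower by either rule, against 6.90% of all genes without the fold threshold and 3.87% with it. PRATA 3 and sham 1 are 1 sample of each group and gave no test.

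Leaving out each sample in turn, the number of Hox genes higher was 0 to 3 by either rule and the number lower 0 to 1, of 20 to 22 tested. Over all genes, these fits had 3.47% to 13.4% higher and 5.44% to 14.1% lower at an unadjusted p under 0.05. With the fold threshold added, 0.641% to 2.34% were higher and 2.43% to 4.36% lower. The single gene at an unadjusted p under 0.05 in the higher direction was Hoxd1 without PRATA 2 and Hoxb4 without PRATA 3, and the 3 genes appeared without sham 2. The median log2 fold change ranged from -0.11 (without PRATA 2) to 0.40 (without sham 2), so that its side of 0 was not stable. The causes of these shifts were not tested. The number of expressed rows was 17 to 18 when a sample was left out, 18 at a CPM of 0.5 or more, 15 at a CPM of 1 or more and 21 at more than 3 reads in every sample.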

Other observations

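A protein-coding row named AABR07073021.1, which RefSeq pairs with the antisense gene Hoxa11-as, had 6 reads, all in sham 2. Together with the Hoxa11 rows and groups 12 and 13, it placed reads at the posterior ends of the clusters mainly in that sample. Cdx2, a caudal gene, was at 1.40 CPM in sham 2 and at most 0.094 CPM in the other 5 samples. Most genes of the spinal cord list had a higher mean in the sham samples, while Slc5a7, Mog and the floor gene Mnx1 did not. Olig2, Olig1 and Chat, with 10 or fewer reads in every sample, were highest in sham 2, at 1.56, 1.40 and 0.624 CPM. The groups overlapped for each of them. Slc6a5, a glycine transporter gene, was at 5.78 CPM in sham 2, 0.553 and 1.79 CPM in the other sham samples and 0.478 to 0.791 CPM in the PRATA samples. Gad1, which makes GABA, was at 1.59, 2.19 and 2.08 CPM in the sham samples and 0.516, 0.319 and 0.237 CPM in the PRATA samples, without overlap (log2 fold change -2.45, adjusted p = 0.156 by edgeR). This gene passed the read filter through the sham samples alone, the group in which it was high. Aqp4, an astrocyte and glial water channel gene, was at 25.1, 11.7 and 41.2 CPM in the sham samples and 11.6, 19.8 and 7.59 CPM in the PRATA samples, with overlap. In the other direction, Slc5a7, a choline transporter gene, was at 18.5, 13.5 and 14.9 CPM after PRATA, against 9.47, 16.7 and 4.53 CPM after sham, with overlap. Mog, a gene of oligodendrocyte myelin, averaged 2.03 CPM after PRATA and 1.98 CPM after sham. The part of these genes in the Hox values was not tested, and they were chosen after their values were seen.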
